A study of Mus musculus with 9 samples.

Results

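The 9 arrays of the series were regrouped by the number that ends each sample title. This gave replicate sets 1, 2 and 3, each with 3 of the 9 arrays, and asked which lung genes and cell-type markers varied between sets. Each set held 1 array of each genotype, so the sets were balanced for genotype. The labels do not say what the number stands for. The leading number of the source names, 3, 9 or 11, falls into the same sets 1, 2 and 3, and nothing in the labels ties it to a litter, a day or an extraction.

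All samples were lung total RNA of adult FVB/N mice on Affymetrix mouse 430A arrays, and all mice kept 2 copies of their own Cftr (mCftr+|+). The transgene was the cDNA of normal human CFTR, the epithelial chloride and bicarbonate channel, under the promoter of Sftpc, the surfactant protein C gene of alveolar type II cells. WT had no transgene, HE had 1 SP-C-hCFTR allele (+|-) and HO had 2 (+|+). The HO array of set 2 is homozygous by its title and genotype field, whereas its description writes 1 allele, and the WT array of set 3 has no genotype field. The labels do not state that the arrays came from separate animals, so a p-value here speaks only to differences among these 9 RNA samples, some of which may be technical.

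Whole lung RNA mixes many cell types: alveolar and airway epithelium, endothelium, fibroblasts, resident and passing blood cells, and, depending on dissection, pieces of large airway, fat, or the cardiac muscle that sheathes pulmonary veins in the mouse. Lung RNA also follows the time of day, because lung cells carry the circadian clock, a feedback loop in which CLOCK and ARNTL switch on the Per, Cry and Nr1d genes, whose products in turn repress the loop. In bulk RNA, fewer cells of a type and less RNA per cell cannot be told apart.

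Median signal was 698 to 743 intensity units per array. As a sign of RNA integrity, 3' over 5' control signal was 1.07 to 1.39 for Actb and 0.768 to 0.885 for Gapdh, and 4.29% to 5.53% of values lay at the floor. None of these 4 measures differed detectably between sets (exact permutation of set within genotype, F ratio, all arrangements, Benjamini-Hochberg adjusted p = 0.75 for each, smallest p the design allows 0.0278). Lung markers were high on every array: log2 signals were 15.62 to 16.06 for Sftpc, 15.43 to 15.99 for Scgb1a1 of club cells and 14.30 to 14.76 for Ager of alveolar type I cells. Mouse Cftr was at 9.82 to 10.23 at 1 probe set and at 4.67 to 6.30 at the other, which was at the floor in the HO array of set 2. Whether either probe set also reads the human transcript was not tested.

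Set accounted for more of the variance between arrays than genotype did. Over the 13576 probe sets above the signal filter, 33.9% of the variance lay between sets, 21.8% between genotypes and 44.3% in the residual. By degrees of freedom alone the shares would be 25%, 25% and 50%. The first principal component, with 20.7% of the variance, placed the 3 arrays of set 1 at -19.8 to -10.4 and the other 6 arrays at 1.23 to 19.4. On the second component (17.6%) the HO array of set 2 lay farthest from the rest. Set 1 was also the set whose 3 arrays most often lay beyond all 6 others: above them for 425 probe sets and below them for 456, against 280 and 255 for set 2 and 318 and 296 for set 3.

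**Figure D1:**
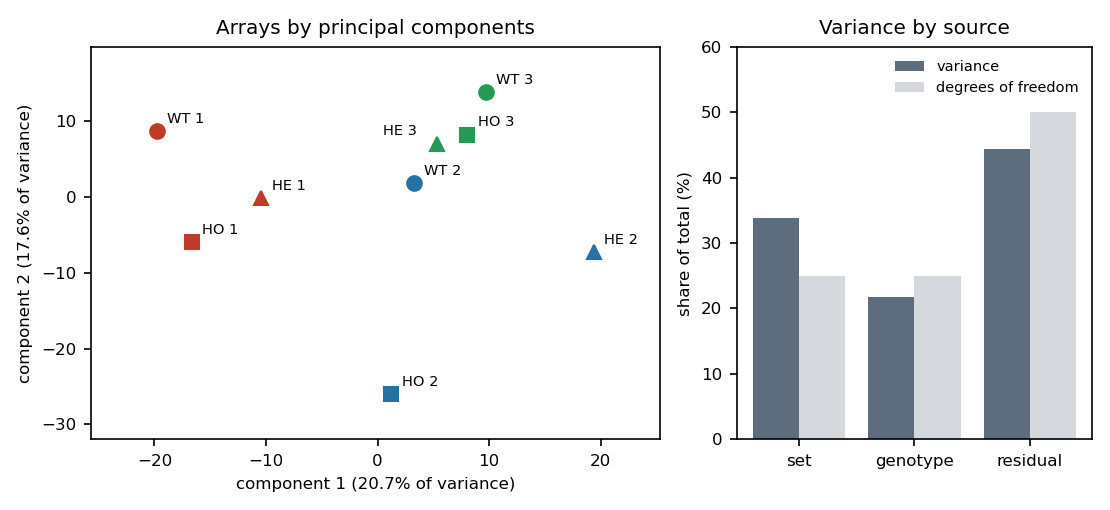
Left, the 9 arrays on the first 2 principal components of log2 signal (13576 probe sets), with colour for replicate set (red 1, blue 2, green 3) and shape for genotype (circle WT, triangle HE, square HO). Right, the share of total variance by source beside its share of degrees of freedom; set 1 lies apart on component 1, and set takes 33.9% of the variance.

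In a limma model with set and genotype, 2 probe sets passed an adjusted p of 0.05 for a difference between the 3 sets (0.0147% of those tested), 1 for Fabp4 and 1 for Apex1. At an unadjusted p under 0.05 there were 1633, or 12.0%, where 679 would be 5% of the probe sets. Genotype, tested in the same model with the set as a block, gave 0 at the adjusted threshold and 588 unadjusted, or 4.33%. Left without the block, genotype gave 0 and 420. The difference between the 2 shares was itself not tested. The median standard error of a set difference was 0.144 on the log2 scale, with a confidence interval of 0.327 to either side.

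Between sets 1 and 2, 4 probe sets passed (0.0295%): Fabp4 and Apex1 were lower and Cxcl2 and Lepr higher in set 2. Unadjusted, 718 were higher (5.29%) and 797 lower (5.87%), which is 11.2% together. The arrays of sets 1 and 2 did not overlap for 2177 probe sets (16.0%), higher for 8.15% and lower for 7.89%. Between sets 1 and 3, limma called 0 probe sets, with 924 higher in set 3 (6.81%) and 648 lower (4.77%) at an unadjusted p under 0.05 (11.6% together), and 2781 without overlap (20.5%; 10.7% higher, 9.83% lower). Between sets 2 and 3 it also called 0, with 632 higher in set 3 (4.66%) and 537 lower (3.96%), 8.61% together, and 1931 without overlap (14.2%; 7.22% higher, 7.01% lower). The balance between sets 1 and 3 depended on the setting: 58.8% of the probe sets past the unadjusted threshold were higher in set 3, but 43.6% when the model was refitted on 1 probe set per gene. The 3 comparisons share arrays, so each is read on its own.

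Fabp4 encodes the fatty acid carrier of fat cells, also made by alveolar macrophages and capillary endothelium. At its called probe set the log2 signals were 10.36, 10.53 and 10.27 in set 1, 8.91, 9.08 and 8.43 in set 2, and 9.43, 9.51 and 9.41 in set 3, in the order WT, HE, HO, which is kept from here on. The 3 sets did not overlap, with set 1 highest and set 2 lowest. Fabp4 fell by 1.58 ± 0.14 (SE, n = 3 per set) from set 1 to set 2, to 0.334 times (limma, adjusted p = 0.0157). Set 3 minus set 1 was -0.94 ± 0.14 (adjusted p = 0.152). A second, brighter probe set gave -1.27 ± 0.32 for set 2 minus set 1 (adjusted p = 0.271), with signals of 10.61 to 11.30 in set 1 and 9.02 to 10.51 in set 2.

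Apex1 encodes the main abasic-site endonuclease of base excision repair. Its called probe set read 12.27, 11.99 and 11.94 in set 1, 11.08, 10.33 and 10.54 in set 2, and 12.00, 11.65 and 11.43 in set 3. Set 2 lay below both other sets on every array. The fall from set 1 to set 2 was by 1.42 ± 0.13 (adjusted p = 0.0164), and set 3 minus set 2 was 1.04 ± 0.13 (adjusted p = 0.400). The gene's other probe sets did not show it: they gave 0.08 ± 0.16 and -0.09 ± 0.26 for set 2 minus set 1, so the call belongs to 1 of its 3 tested probe sets.

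Cxcl2 encodes a chemokine that draws neutrophils and is an early target of NF-kB. Its log2 signals were 8.59, 8.41 and 8.35 in set 1, 10.19, 9.93 and 9.95 in set 2, and 10.38, 9.51 and 9.28 in set 3. All 3 arrays of set 1 lay below the other 6, while sets 2 and 3 overlapped. Cxcl2 rose by 1.57 ± 0.18 from set 1 to set 2, to 2.97 times (adjusted p = 0.0363), and was 1.27 ± 0.18 higher in set 3 than in set 1 (adjusted p = 0.152).

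Lepr, the leptin receptor, read 9.61, 9.81 and 10.05 in set 1, 10.60, 11.03 and 11.14 in set 2, and 10.14, 10.57 and 10.45 in set 3. The 3 sets did not overlap, with set 1 lowest and set 2 highest. The rise from set 1 to set 2 was 1.10 ± 0.12, to 2.14 times (adjusted p = 0.0363). Another probe set of Lepr gave 0.30 ± 0.19 between the same sets, and the called probe set was not the brightest of the gene.

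**Figure D2:**
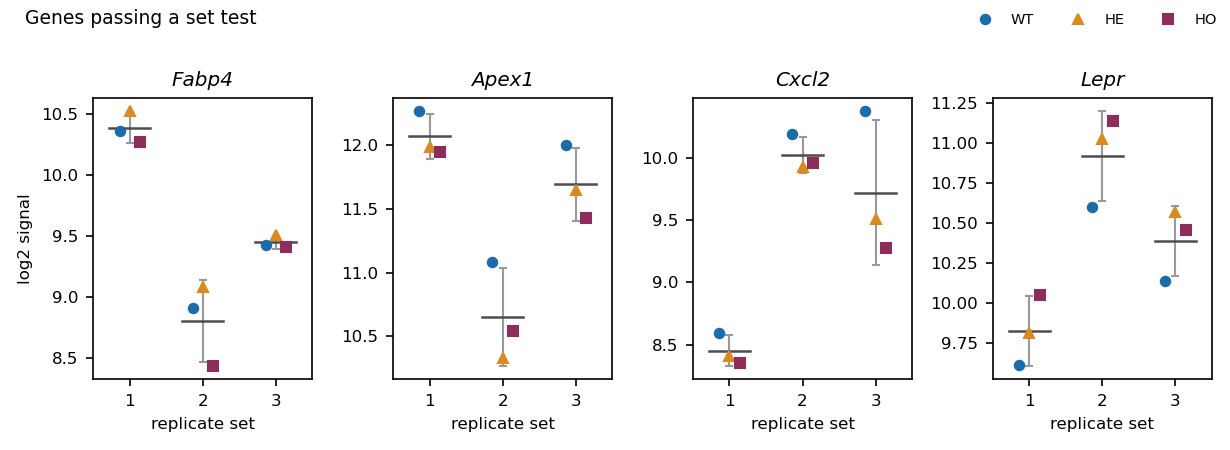
Log2 signal of the 4 probe sets that passed a test between sets, by replicate set, with 1 point per array (circle WT, triangle HE, square HO); lines are means and bars SD over the 3 arrays. Set 1 is highest for Fabp4 and lowest for Cxcl2 and Lepr, and set 2 is lowest for Fabp4 and Apex1.

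The calls depended on the processing and on few arrays. With no filter on signal all 4 were lost (adjusted p 0.342 to 0.402), and with quantile normalization Cxcl2 was lost between sets 1 and 2 (adjusted p = 0.0571), while over the 3 sets Fabp4 alone passed. With 1 probe set per gene, that of the highest mean signal, only Apex1 and Cxcl2 passed between sets 1 and 2. The called probe sets of Fabp4 and Lepr were not the brightest of their genes and did not enter that fit. Counted as HE, the HO array of set 2 left Fabp4 at an adjusted p of 0.0557, Apex1 at 0.0549, and Cxcl2 and Lepr at 0.0557 each. With any 1 of the 9 arrays left out, neither Fabp4 nor Apex1 passed the test over the 3 sets. Their difference between sets 1 and 2 passed without some arrays: Fabp4 without the WT array of any set or the HE or HO array of set 3, and Apex1 without the WT array of set 1 or 2 or the HE or HO array of set 3. Cxcl2 passed only without the WT or the HO array of set 3, and Lepr failed with each of the 9 arrays left out (adjusted p 0.0664 to 0.345). The sizes moved little, from -1.67 to -1.43 for Fabp4, -1.50 to -1.29 for Apex1, 1.44 to 1.69 for Cxcl2 and 1.02 to 1.14 for Lepr.

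To order the rest, 41 gene lists of cell types and pathways were described by set, with 1 probe set per gene, that of the highest mean signal. Over the 8184 genes tested this way, 9.95% had an unadjusted p under 0.05 over the sets and 4.13% over the genotypes, and 1 gene (0.0122%) passed adjustment over the sets, as 2 (0.0244%) did between sets 1 and 2, 1 higher and 1 lower (0.0122% each). In set 2 against set 1, 4.07% were higher and 6.38% lower at that level, in set 3 against set 1 3.86% and 5.01%, and in set 3 against set 2 3.62% and 3.52%. Without overlap of arrays the shares higher and lower were 7.20% and 8.80%, 7.91% and 10.6%, and 6.26% and 7.05%; in either direction, 10.4%, 8.87% and 7.14% passed the unadjusted threshold and 16.0%, 18.5% and 13.3% did not overlap. The median difference over all genes was -0.01, -0.02 and 0.00 in these comparisons. Unless an adjusted p is said to pass, the members named below did not pass, and their values are given as values.

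Clock genes were mostly higher in sets 2 and 3 than in set 1. Of 15 clock genes tested, 6 had an unadjusted p under 0.05 over the sets. In set 3 against set 1, 14 of 15 had a difference above 0 with a median of 0.26, and 5 were higher at p under 0.05. In set 2 against set 1, 12 of 15 were above 0 with a median of 0.30, with 5 higher and 2 lower. Among all genes, 9.95% had such a p over the sets. Against set 1, 3.86% of all genes were higher in set 3, and 4.07% higher and 6.38% lower in set 2. Taken per array against the 9-array mean, the median clock gene was -0.25, -0.26 and -0.02 in set 1, 0.06, 0.07 and 0.02 in set 2, and 0.17, 0.07 and 0.14 in set 3. Set 1 was thus lowest, though its HO array came close to set 2. Without any 1 array, or with any other setting, the median of set 2 minus set 1 stayed between 0.19 and 0.35, and that of set 3 minus set 1 between 0.20 and 0.36.

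Per2, a repressor of the loop and one of its direct targets, led the list. It read 9.90, 10.08 and 10.03 in set 1, 10.64, 11.05 and 10.56 in set 2, and 10.91, 11.17 and 10.91 in set 3. No array of set 1 reached the other sets, and sets 2 and 3 overlapped. Set 3 minus set 1 was 0.99 ± 0.12, or 1.99 times (adjusted p = 0.152), and set 2 minus set 1 was 0.75 ± 0.12 (adjusted p = 0.147). The second Per2 probe set gave 0.57 ± 0.20 and 0.31 ± 0.20.

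Among other repressors, Nr1d2, the nuclear receptor REV-ERB beta, read 9.85, 10.05 and 9.84 in set 1, 10.70, 10.90 and 10.46 in set 2, and 11.14, 10.56 and 11.43 in set 3. Set 1 was again below all other arrays. Its difference was 1.13 ± 0.22 for set 3 minus set 1, but the brighter Nr1d2 probe set, at 12.93 to 13.43, gave only 0.24 ± 0.14. Per3 had 3 probe sets, of which those above the filter gave 0.61 ± 0.13 and 0.55 ± 0.13 in set 3 and 0.32 ± 0.13 and 0.50 ± 0.13 in set 2, both against set 1. In Per1, the member most responsive to acute stimuli, set 2 minus set 1 was -0.41 ± 0.18 and set 3 minus set 1 -0.01 ± 0.18, unlike Per2.

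Hlf and Tef encode PAR bZIP factors, output regulators that bind D-box sites of clock-driven genes. Hlf read 10.15, 10.11 and 10.40 in set 1, 10.92, 10.83 and 10.97 in set 2, and 10.76, 10.88 and 10.65 in set 3. Set 1 was below both other sets, by 0.69 ± 0.13 for set 2 and 0.55 ± 0.13 for set 3, and the second Hlf probe set gave 0.43 ± 0.14 and 0.47 ± 0.14. In Tef, the probe set of lower signal gave 0.64 ± 0.19 and 0.87 ± 0.19, and the brighter one 0.34 ± 0.11 and 0.31 ± 0.11. Dbp, the third of these factors, differed less: 0.01 ± 0.14 in set 2 and 0.41 ± 0.14 in set 3. Rora, an activator of Arntl, was 0.51 ± 0.14 higher in set 2 than in set 1 at its brightest probe set and 0.34 ± 0.14 higher in set 3. In the activator arm, Clock gave -0.48 ± 0.15 in set 2 at 1 probe set and -0.05 ± 0.17 at the other. Arntl lay under the filter, at 8.30 to 9.23 in set 1 and 7.87 to 8.60 in set 3, with overlap.

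**Figure D3:**
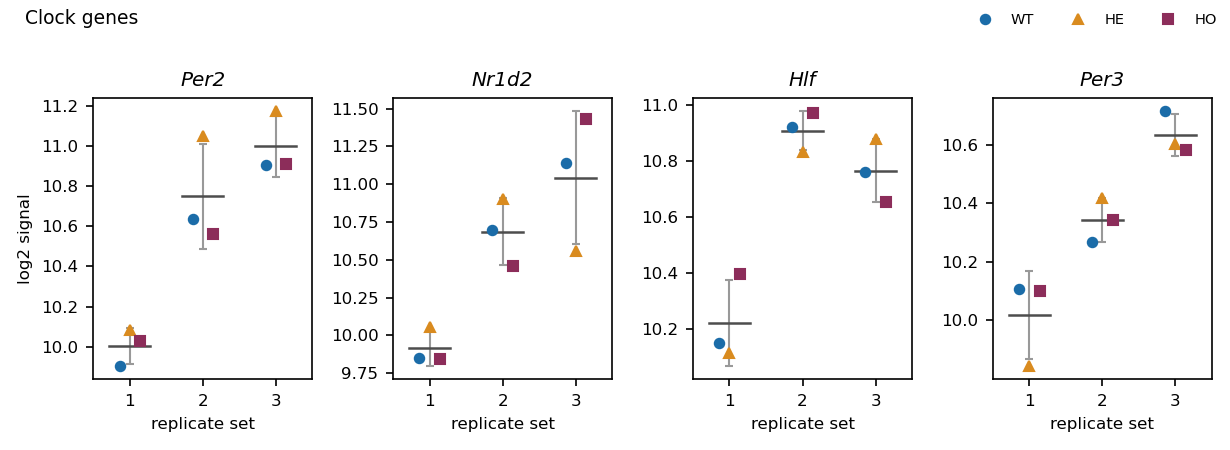
Log2 signal of the clock genes Per2, Nr1d2, Hlf and Per3 by replicate set, with 1 point per array (circle WT, triangle HE, square HO), the mean as a line and the SD as a bar. In each panel the 3 arrays of set 1 lie below all 6 others.

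Promoters of these genes are shown because the loop acts through short promoter elements, the E-box bound by CLOCK and ARNTL and the cAMP response element through which acute signals reach the Per genes. The letters searched were CACGTG for the E-box and, for the core of the cAMP response element, TGACG on either strand. Sequences are RefSeq's for GRCm38.p6, 300 bases around the gene's start, 5′ to 3′ on the gene's strand, with matches in capitals. Hlf (chr11:90390868-90391167, minus strand), Tef (chr15:81802423-81802722, plus strand) and Nr1d2 (chr14:18239057-18239356, minus strand) are given. The sequences available held no Per2 promoter. The second Tef promoter, which also holds 1 E-box, is not shown.
Hlf: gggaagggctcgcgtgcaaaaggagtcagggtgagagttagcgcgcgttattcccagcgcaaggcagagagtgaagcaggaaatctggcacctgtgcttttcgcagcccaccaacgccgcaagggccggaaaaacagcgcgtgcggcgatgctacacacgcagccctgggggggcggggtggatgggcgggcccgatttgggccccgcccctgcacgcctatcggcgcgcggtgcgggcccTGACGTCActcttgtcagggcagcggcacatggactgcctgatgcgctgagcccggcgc
Tef: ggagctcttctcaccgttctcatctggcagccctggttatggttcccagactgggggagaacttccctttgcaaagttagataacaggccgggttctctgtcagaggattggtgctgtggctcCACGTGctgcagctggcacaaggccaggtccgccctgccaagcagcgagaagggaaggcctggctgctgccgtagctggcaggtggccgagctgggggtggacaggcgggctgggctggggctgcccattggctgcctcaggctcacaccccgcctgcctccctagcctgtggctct
Nr1d2: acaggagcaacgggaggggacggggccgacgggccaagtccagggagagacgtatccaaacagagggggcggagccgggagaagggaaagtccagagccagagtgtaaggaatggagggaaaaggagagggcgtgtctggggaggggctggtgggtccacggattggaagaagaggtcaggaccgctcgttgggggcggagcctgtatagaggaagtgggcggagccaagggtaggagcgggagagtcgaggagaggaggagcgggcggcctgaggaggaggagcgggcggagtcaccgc
The E-box, searched on both strands, was in 5 of the 25 promoters of clock genes in the table (20%), belonging to Tef, Cry1, Per1 and Bhlhe41, and in 7.15% of all 32851 promoters. The cAMP response element core was in 9 of the 25 (36%), against 20.8% of all. The 25 promoters belong to 17 genes, and some windows of 1 gene overlap, so they are not separate. By gene, 4 of the 17 had the E-box and 7 the core, against 2187 and 6228 of all 27025 genes. The capitals in Hlf are 1 palindrome that matches on both strands, so its 2 matches overlap. The AP-1 site TGANTCA was in 0 of the 25 and in 7.81% of all. A match is a run of letters and not a shown binding site, and Nr1d2 holds neither element in this window.

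Immediate early genes, the transcription factors induced within minutes by stress or handling, mostly had differences above 0 in set 3, but few had an unadjusted p under 0.05. Of 27 tested, 22 were above 0 in set 3 minus set 1, with a median of 0.25, and 21 in set 3 minus set 2, with a median of 0.27; 15 were above 0 in set 2 minus set 1, with a median of 0.09. At an unadjusted p under 0.05, 2 were higher and 2 lower in set 3 minus set 1. In set 3 minus set 2, 2 were higher and 1 lower. Over all genes, the shares were 3.86% and 5.01%, and 3.62% and 3.52%. Over the sets, 2 of the 27 had such a p, against 9.95% of all genes. The level varied within sets: by array the list median ran from -0.41 in the HO array of set 2 to 0.40 in the WT array of set 3. The HO array of set 3, at -0.02, lay below the HO array of set 1, at 0.16, and the HE array of set 2, at 0.20. Without the HE array of set 1 the median of set 3 minus set 1 was 0.04, without the HO array of set 1 it was 0.57, and without the WT array of set 2 that of set 3 minus set 2 was 0.06. That of set 2 minus set 1 was -0.23 without the HE array of set 2. Ier3 and Nr4a2 had an unadjusted p under 0.05 over the sets, at -0.39 ± 0.11 and 1.15 ± 0.39 for set 3 minus set 2, but the other tested Nr4a2 probe set gave 0.02 ± 0.21. How this list and the clock list differ was not tested. Cytosolic heat shock genes gave a median of 0.02 in set 2 and 0.10 in set 3 against set 1, which became -0.12 and -0.07 without the WT array of set 1. At 1 probe set Hspa4, of the same family, read 8.43, 8.48 and 9.50 in set 1 and 9.70 to 10.21 in the other sets, whereas its 2 other probe sets gave 0.09 ± 0.14 and 0.04 ± 0.16 for set 2 minus set 1. Among glucocorticoid-responsive genes, Zbtb16 was 1.06 ± 0.34 higher in set 2 and 1.15 ± 0.34 higher in set 3 than in set 1, and the list median was 0.03 and 0.08; without the WT array of set 2 the first was -0.11, and without the WT array of set 1 the second was -0.07.

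Of 19 inflammatory cytokines and NF-kB targets tested, 5 were higher and 0 lower in set 2 than in set 1 at an unadjusted p under 0.05, with a list median of 0.20, which was 0.09 without the WT array of set 1. In set 3 against set 1, 4 were higher and 1 lower, with a median of 0.07 that turned to -0.08 without that array. Among all genes, 4.07% were higher and 6.38% lower in set 2, and 3.86% and 5.01% in set 3. Cxcl1, a neutrophil chemokine like Cxcl2, read 8.80, 8.60 and 9.15 in set 1, 10.71, 9.98 and 9.78 in set 2, and 9.90, 9.72 and 9.12 in set 3. Set 2 lay above set 1 on all arrays, by 1.31 ± 0.24 (adjusted p = 0.174), and set 3 overlapped set 1. Socs3, a feedback inhibitor of cytokine receptors, gave 0.78 ± 0.21 in set 2 at 1 probe set, but 0.47 ± 0.20 and 0.04 ± 0.21 at its others.

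Among the single genes named by their difference between sets 1 and 2, Tlr2, the receptor for bacterial lipopeptides, read 10.42, 10.10 and 10.45 in set 1, 11.19, 11.33 and 11.34 in set 2, and 10.86, 11.03 and 10.63 in set 3. Its sets did not overlap, with set 2 highest. Tnfaip2, induced by TNF, was 1.01 ± 0.16 higher in set 2 than in set 1 at 1 probe set and 0.66 ± 0.16 at the other, and set 3 minus set 2 was -0.77 ± 0.16 and -0.36 ± 0.16. Olr1, the lectin-like receptor for oxidised LDL, was 0.99 ± 0.15 higher in set 2, and Bcl3, a nuclear NF-kB cofactor, 0.66 ± 0.18. Lyve1, the hyaluronan receptor of lymphatic endothelium and some macrophages, was 0.80 ± 0.14 higher in set 2 at 1 probe set and 0.56 ± 0.16 at the other. Its list, lymphatic endothelium and mesothelium, lay mostly the other way: 5 of 8 genes were below 0 in set 2 minus set 1, with a median of -0.17, 2 lower and 1 higher at an unadjusted p under 0.05, among them mesothelial Msln at -0.71 ± 0.24. The shares over all genes were 6.38% lower and 4.07% higher.

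Neutrophil transcripts did not divide by set. S100a8, a granule protein of neutrophils, read 12.01, 12.29 and 13.49 in set 1, 14.35, 13.74 and 11.79 in set 2, and 12.28, 14.81 and 11.86 in set 3. Each set thus held low and high arrays, and the order differed from that of Cxcl2. By array the median of the 10 neutrophil genes ran from -0.52 to 0.83. The median of set 2 minus set 1 was 0.35 and became -0.07 without the WT array of set 2. Set 3 minus set 1 was 0.37 and became -0.32 without the HE array of set 3. The log2 of the summed signal of the list was 14.21 to 15.16 in set 1, 14.12 to 15.89 in set 2 and 14.15 to 16.25 in set 3, and the part of neutrophils in the chemokine values was not tested.

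Genes of the MHC class II list were mostly higher in set 2 than in set 3. H2-DMa, the peptide-loading chaperone of MHC class II, read 11.16, 11.22 and 11.57 in set 1, 11.72, 11.89 and 11.95 in set 2, and 11.19, 11.17 and 11.44 in set 3. All arrays of set 2 exceeded all others. H2-Ab1, a class II beta chain, gave -0.61 ± 0.12, -0.43 ± 0.13 and -0.50 ± 0.12 for set 3 minus set 2 at its 3 probe sets. Of 11 class II and dendritic cell genes tested, 10 were below 0 in set 3 minus set 2, with a median of -0.29 (-0.17 without the WT array of set 2), and 4 were lower at an unadjusted p under 0.05 where 3.52% of all genes were. Of 24 interferon-induced genes, 7 were lower and 0 higher at that level and 18 were below 0, with a median of -0.23, which was -0.05 without the HE array of set 2.

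Within that list Gbp2, an interferon-induced GTPase, read 11.90, 11.88 and 11.91 in set 1, 12.37, 13.06 and 12.34 in set 2, and 11.73, 11.88 and 11.77 in set 3. Set 2 was above all other arrays, by 0.79 ± 0.16 over set 3. The other tested Gbp2 probe set read 12.06, 12.76 and 11.58 in set 2, with its HO array inside the range of the other sets, and gave -0.53 ± 0.22 for set 3 minus set 2. The transcription factor Irf1 was 0.55 ± 0.13 higher in set 2 than in set 1, and the immunoproteasome subunit Psmb9 0.48 ± 0.18. Some members stood out on 1 array. Irf7, a transcription factor of the type I interferon response, read 12.00 in the WT array of set 1 and 9.28 to 10.26 on the other 8. Ifit1 was at 12.00 there against 10.11 to 10.63, and Usp18 at 12.08 against 10.09 to 10.85. Without that array the list median of set 3 minus set 1 went from -0.32 to -0.04.

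Some markers of airway epithelium, Bpifa1 and ciliated cell genes among them, were higher in set 1, whereas club cell genes were mixed. Bpifa1, a secreted protein of the nasal and large-airway surface, read 10.86, 11.04 and 10.89 in set 1, 8.91, 7.49 and 5.97 in set 2, and 7.60, 8.17 and 7.62 in set 3. The 3 arrays of set 1 lay close together and above the rest. Its mean of 9 arrays lay under the signal filter. In the fit without a filter, set 2 minus set 1 was -3.47 (adjusted p = 0.402) and set 3 minus set 1 was -3.13. Bpifb1, of the same family, read 9.98, 10.45 and 10.91 in set 1, 9.82, 8.89 and 6.50 in set 2, and 9.90, 10.03 and 10.24 in set 3. The HO array of set 2 was far the lowest, and set 3 overlapped set 1.

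Of 6 ciliated cell genes tested, 6 were below 0 in set 2 and 6 in set 3, both against set 1, with medians of -0.41 and -0.29, and 4 were lower in set 2 at an unadjusted p under 0.05. The share of all genes lower in set 2 was 6.38%. Foxj1, the master regulator of motile cilia, read 10.85, 11.08 and 11.17 in set 1, 9.83, 10.45 and 9.47 in set 2, and 10.65, 9.81 and 10.41 in set 3. Set 1 was above all others, by 1.11 ± 0.28 over set 2 and 0.74 ± 0.28 over set 3. By array the ciliated list median was 0.34, 0.31 and 0.15 in set 1 and -0.25 to 0.02 in the other sets. Of 14 club cell genes, 10 were below 0 in set 3 minus set 1 and 6 were lower and 1 higher at an unadjusted p under 0.05, with a median of -0.30 that was -0.05 with quantile normalization. In set 2 minus set 1, 3 were lower and 2 higher, with a median of -0.06. The shares over all genes were 5.01% lower and 3.86% higher in set 3, and 6.38% and 4.07% in set 2. Paraoxonase Pon1 was -0.54 ± 0.12 in set 2 and -0.54 ± 0.12 in set 3 against set 1, whereas the flavin monooxygenase Fmo2 was 0.67 ± 0.17 and 0.65 ± 0.17, and 0.53 ± 0.13 and 0.39 ± 0.13 at its other tested probe set. Itgb6, the epithelial integrin subunit that activates TGF-beta, was -0.99 ± 0.14 in set 2 (adjusted p = 0.0851), and -0.23 ± 0.17 at another probe set. Ltf, the iron-binding host-defence protein lactoferrin, was -0.96 ± 0.29 in set 2 and -0.86 ± 0.29 in set 3. It is on the neutrophil list and not on the club or ciliated cell lists. Of the 10 neutrophil genes, 9 were above 0 in set 2 minus set 1.

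Cardiac muscle genes were higher in the HE and HO arrays of set 1 than elsewhere. Of 14 tested, 13 were below 0 in set 2 against set 1, with a median of -0.51, and 13 in set 3 against set 1, with a median of -0.41; 8 and 5 were lower at an unadjusted p under 0.05. The shares lower over all genes were 6.38% and 5.01%. The list median by array was 0.06, 0.44 and 0.47 in set 1, 0.07, -0.31 and -0.38 in set 2, and 0.01, -0.13 and -0.18 in set 3. The 3 WT arrays were thus alike, and the gap lay between the transgenic arrays of set 1 and those of the other sets. Without the HO array of set 1 the median of set 3 minus set 1 was -0.21, and without its WT array -0.70.

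Sln, the sarcolipin of atrial muscle, read 11.08, 11.59 and 11.59 in set 1, 10.87, 10.41 and 10.30 in set 2, and 10.82, 10.60 and 10.82 in set 3. Set 1 did not overlap the others. Set 2 minus set 1 was -0.89 ± 0.20 and set 3 minus set 1 -0.67 ± 0.20. Cox7a1, the muscle form of a cytochrome c oxidase subunit, was -0.90 ± 0.18 and -0.92 ± 0.18, and the atrial light chain Myl7 -0.65 ± 0.20 and -0.69 ± 0.20. Nppa, the atrial natriuretic peptide, lay under the filter and read 9.40 to 9.50 in set 1 against 7.61 to 8.76 in set 2 and 7.75 to 8.68 in set 3. Myh6, the alpha myosin heavy chain, at its tested probe set overlapped between the sets, at 11.33 to 12.40, 11.67 to 11.95 and 11.19 to 11.71.

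Of 14 skeletal muscle genes on the array, 3 passed the filter. Mb, the oxygen store myoglobin, read 10.51, 10.92 and 11.17 in set 1, 10.80, 9.36 and 9.25 in set 2, and 10.23, 9.58 and 9.72 in set 3. Its WT array of set 2 lay within set 1, the other 5 arrays of sets 2 and 3 below it. Ckm, muscle creatine kinase, gave -0.71 ± 0.22 and -0.63 ± 0.22, and its WT array of set 2 also lay within set 1. Both are also made in heart. The part of attached heart or vein muscle in the other differences was not tested.

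Some fat genes, Adipoq among them, had their lowest mean in set 2. Adipoq, the adipocyte hormone adiponectin, read 9.10, 9.75 and 10.22 in set 1, 8.97, 7.68 and 6.68 in set 2, and 9.30, 9.47 and 9.43 in set 3. Set 2 was below every other array, and its own 3 arrays spread over more than the gap to set 1. Set 2 minus set 1 was -1.91 ± 0.49 (adjusted p = 0.271) and set 3 minus set 2 was 1.62 ± 0.49 (adjusted p = 0.507). Gpd1, which makes glycerol phosphate for triglycerides, read 10.09, 10.21 and 10.05 in set 1, 9.02, 9.28 and 9.28 in set 2, and 9.38, 9.68 and 9.34 in set 3. Its sets did not overlap, with -0.92 ± 0.12 for set 2 minus set 1 (adjusted p = 0.0766), but its 2 other tested probe sets gave -0.48 ± 0.18 and -0.24 ± 0.22.

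Cidea, a lipid-droplet protein of brown fat, lay under the filter and read 7.74, 7.06 and 7.83 in set 1, 5.17, 4.75 and 5.27 in set 2, and 5.44, 4.96 and 7.28 in set 3. The brown-fat uncoupler Ucp1 was at the floor on 8 of 9 arrays. Of 7 adipocyte genes tested, all 7 were below 0 in set 2 against set 1, and 2 were lower at an unadjusted p under 0.05. Their median was -0.16, -0.31 without the HE array of set 2 and -0.08 without the HO array of set 1. By array the list median was 0.00, -0.06 and 0.29 in set 1 and 0.01, -0.14 and -0.22 in set 2. In set 3 it was 0.00, 0.10 and 0.06. The low list medians of set 2 thus lay in its HE and HO arrays and not in its WT array. Among all genes, 6.38% were lower in set 2 than in set 1 at that threshold. The hormone-sensitive lipase Lipe read 10.45 to 10.70 in set 1 and 10.08 to 10.78 in set 2 and so overlapped. The log2 of the summed signal of the list was 13.53 to 13.85 in set 1, 13.23 to 13.40 in set 2 and 13.50 to 13.64 in set 3. The part of fat in the Fabp4 difference was not tested.

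**Figure D4:**
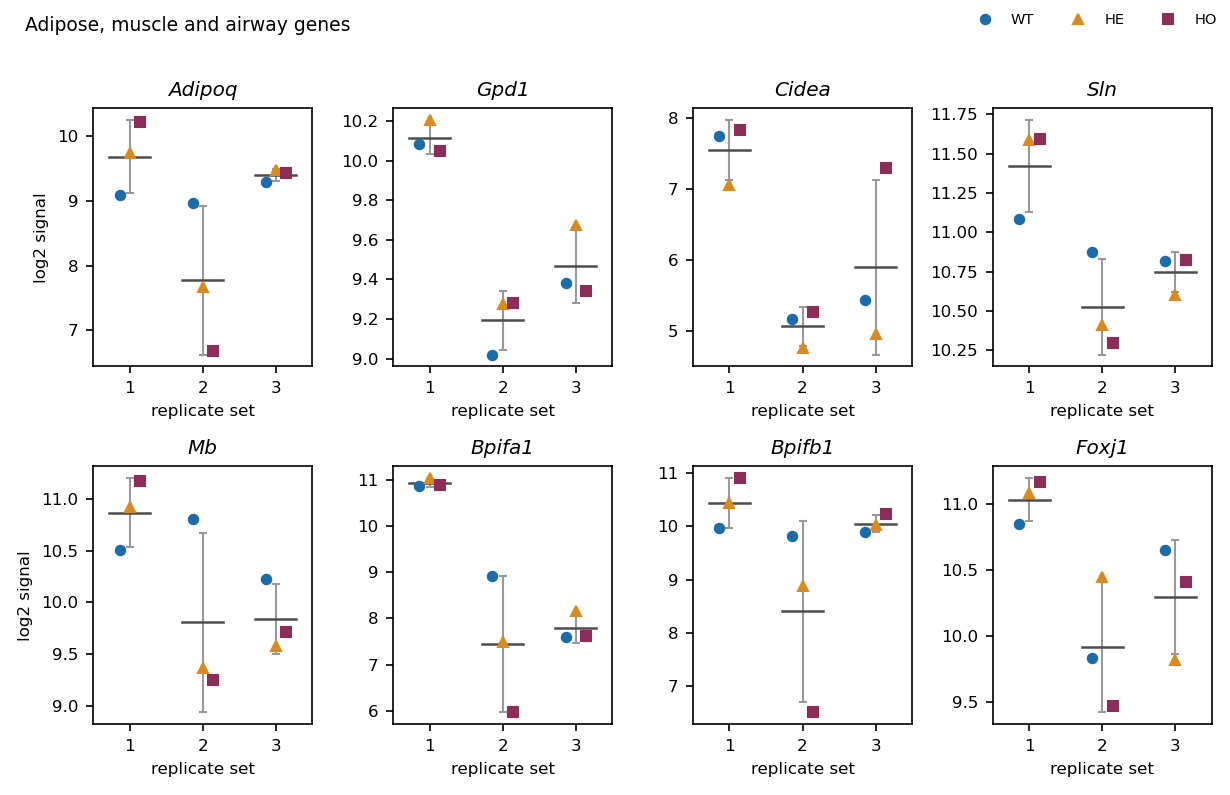
Log2 signal of adipose (Adipoq, Gpd1, Cidea), muscle (Sln, Mb) and airway genes (Bpifa1, Bpifb1, Foxj1) by replicate set, with 1 point per array (circle WT, triangle HE, square HO), the mean as a line and the SD as a bar; axes differ between panels. Set 1 is high for Bpifa1, Sln and Foxj1. The HO array of set 2 is the lowest of all arrays for Adipoq, Sln, Mb, Bpifa1, Bpifb1 and Foxj1.

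Cholesterol synthesis genes were mostly higher in set 1. Of 17 cholesterol synthesis genes, 8 were lower in set 2 than in set 1 at an unadjusted p under 0.05 and 0 were higher, with 14 of 17 below 0 and a median of -0.23; in set 3 it was 4 lower, 13 of 17 below 0 and a median of -0.14. The shares lower over all genes were 6.38% in set 2 and 5.01% in set 3. Without the HE array of set 1 the median in set 2 was -0.41, and without the WT array of set 3 that in set 3 was -0.04. Hmgcs1, which makes the HMG-CoA at the head of the pathway, read 12.97, 12.96 and 13.09 in set 1, 12.41, 12.40 and 12.38 in set 2, and 12.17, 12.47 and 12.35 in set 3. Set 1 stood above both other sets with little spread. At its 4 probe sets, set 2 minus set 1 was -0.61 ± 0.12, -0.36 ± 0.15, -0.32 ± 0.16 and -0.42 ± 0.13, and set 3 minus set 1 -0.68 ± 0.12, -0.54 ± 0.15, -0.54 ± 0.16 and -0.39 ± 0.13. Downstream, squalene synthase Fdft1 was -0.69 ± 0.17 in set 2, squalene epoxidase Sqle -0.50 ± 0.13 and lanosterol synthase Lss -0.59 ± 0.15. Of 17 fatty acid synthesis and storage genes, 2 were lower and 1 higher in set 2 and 2 lower and 0 higher in set 3, with medians of -0.12 and -0.04; the first was -0.01 without the HE array of set 2 and the second 0.02 without the HO array of set 3. Among all genes, 6.38% were lower and 4.07% higher in set 2, and 5.01% and 3.86% in set 3. Malic enzyme Me1, a source of NADPH, was -0.36 ± 0.13 in set 2 and -0.68 ± 0.13 in set 3, but -0.12 ± 0.11 and -0.01 ± 0.11 at its brighter probe set. The desaturase Scd1 gave 0.56 ± 0.15 and 0.49 ± 0.15, but -0.08 ± 0.13 and -0.26 ± 0.13 at its brighter one.

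Ldhb, the heart-type lactate dehydrogenase subunit, was higher in set 1 at every probe set. The leading one read 12.94, 12.85 and 12.94 in set 1, 12.16, 12.19 and 12.22 in set 2, and 12.09, 12.10 and 12.26 in set 3. Sets 2 and 3 were alike and set 1 was clear of both. Over its 4 probe sets, set 2 minus set 1 was -0.72, -0.66, -0.59 and -0.45, and set 3 minus set 1 -0.76, -0.68, -0.68 and -0.62 (adjusted p 0.128 to 0.279). Tiam1, a Rac exchange factor, had the same form at its tested probe set, with -0.73 ± 0.12 and -0.88 ± 0.12. Of antioxidant genes, 23 tested, 5 were lower and 1 higher in set 2 and 7 lower and 0 higher in set 3, led by the quinone reductase Nqo1 (-0.80 ± 0.14 and -0.54 ± 0.14). The shares over all genes were 6.38% lower and 4.07% higher in set 2, and 5.01% and 3.86% in set 3. Sulfotransferase Sult1d1 was -1.48 ± 0.23 in set 2 and -0.77 ± 0.23 in set 3. Cyp2e1, a cytochrome P450 of solvents and ethanol, was -1.10 ± 0.18 in set 2 and -0.28 ± 0.18 in set 3.

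Set 3 had small, broad shifts in abundant housekeeping transcripts, which the HE array of set 2 partly shared. Of 34 cytosolic ribosomal protein genes tested, 33 were below 0 in set 3 minus set 2, with a median of -0.22, and 7 were lower at an unadjusted p under 0.05. In set 3 minus set 1, 32 were below 0, with a median of -0.16. These medians depended on the scaling: with quantile normalization they were -0.07 and -0.03. Of 57 oxidative phosphorylation genes, 54 were below 0 in set 3 minus set 1, with a median of -0.20, and 9 were lower at that level; no setting took this median outside -0.23 to -0.16. In set 2 minus set 1, 42 were below 0, with a median of -0.08, or 0.01 without the HE array of set 2. By array the list median was 0.08, -0.12 and 0.08 in set 2 and -0.17, -0.10 and -0.05 in set 3. Among all genes, 5.01% were lower in set 3 minus set 1 and 3.52% in set 3 minus set 2. Cox5a, a subunit of cytochrome c oxidase, read 11.32, 12.00 and 11.86 in set 1, 11.69, 11.60 and 11.61 in set 2, and 10.68, 11.17 and 11.25 in set 3. Set 3 was lowest, by 0.70 ± 0.16 against set 1 and 0.60 ± 0.16 against set 2, but the brighter Cox5a probe sets gave -0.33 ± 0.13 and -0.23 ± 0.11 against set 1 and -0.01 ± 0.13 and -0.07 ± 0.11 against set 2.

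Among single genes named by their difference between sets 2 and 3, Nedd4, a ubiquitin ligase, read 11.77, 11.93 and 11.60 in set 1, 11.89, 11.74 and 11.68 in set 2, and 12.50, 12.33 and 12.50 in set 3, though its 2 other probe sets gave 0.03 ± 0.13 and 0.06 ± 0.17 for set 3 minus set 2. Fblim1, a filamin-binding adaptor, was 0.91 ± 0.17 higher in set 3 than in set 2 and 0.42 ± 0.13 at its other probe set. Scn7a, an atypical sodium channel, was 1.16 ± 0.19 higher and Deptor, an inhibitor of mTOR, 1.24 ± 0.21, the latter with 0.28 ± 0.13 and -0.05 ± 0.19 at 2 brighter probe sets. In the other direction Map3k12, a stress kinase, was -0.71 ± 0.11 in set 3 against set 2, and 0.53 ± 0.13 at its other tested probe set. These 5 leading probe sets each had an adjusted p of 0.502 in that comparison.

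Endothelial genes were close between sets, with a median of 0.03 in set 2 and 0.10 in set 3 against set 1 over 21 genes. Among the exceptions, Calcrl, the receptor for adrenomedullin, was at 0.60 ± 0.15 and 0.78 ± 0.15 but 0.32 ± 0.13 and -0.00 ± 0.13 at its brighter probe set. Ednrb, the endothelin receptor of alveolar capillaries, was at 0.06 ± 0.15 and 0.64 ± 0.15 and, at its other probe set, 0.26 ± 0.14 and 0.41 ± 0.14. Ece1, of the same list, went the other way at 1 probe set, at -0.49 ± 0.23 and -0.54 ± 0.23. Alveolar type II genes had medians of -0.07 and -0.15, the latter 0.02 with quantile normalization. Matrix genes were low in the WT and HE arrays of set 2, with list medians of -0.15 and -0.17, and not in its HO array, at 0.10, against 0.02 to 0.12 in set 1. The median of set 2 minus set 1 was -0.10, -0.04 without the WT array of set 2 and -0.26 without its HO array. Col1a1, a chain of type I collagen, read 10.26, 10.12 and 9.95 in set 1, 9.47, 9.06 and 9.18 in set 2, and 10.04, 9.22 and 9.80 in set 3. Of the 22 matrix genes tested, 5 were lower and 0 higher in set 2 than in set 1 at an unadjusted p under 0.05, and sets 1 and 2 did not overlap for Col1a1. The shares over all genes were 6.38% lower and 4.07% higher. Loxl1, which cross-links elastin, was -1.09 ± 0.16 in set 2 and -0.56 ± 0.16 in set 3.

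Among blood cell genes, Igha, the immunoglobulin A heavy chain of mucosal plasma cells, read 13.37, 14.48 and 13.65 in set 1, 12.49, 12.98 and 12.84 in set 2, and 13.29, 13.52 and 13.92 in set 3. Set 2 was lowest, by 1.06 ± 0.21 against set 1, and at -0.90 ± 0.27 and -0.77 ± 0.19 by its other probe sets; these may share signal with other immunoglobulin transcripts. Fech and Bpgm, enzymes of haem synthesis and of red cell glycolysis, were 0.83 ± 0.23 and 0.75 ± 0.21 higher in set 3 than in set 2, and 0.34 ± 0.26 and 0.41 ± 0.22 at their tested probe sets of smallest difference. Of the 13 red cell and platelet genes tested, 3 were higher and 0 lower at an unadjusted p under 0.05 in that comparison, while 7 were below 0 and the median was -0.06, or 0.10 without the HO array of set 3. Among all genes, 3.62% were higher and 3.52% lower. Alas2, the erythroid start of haem synthesis, was highest in the HE and HO arrays of set 3, at 14.03 and 13.98, and 12.45 to 13.55 elsewhere. Tfrc, the transferrin receptor, was 0.67 ± 0.20 higher in set 2 and 0.87 ± 0.20 in set 3 than in set 1 at 1 probe set and 0.45 ± 0.14 and 0.15 ± 0.14 at another.

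**Figure D5:**
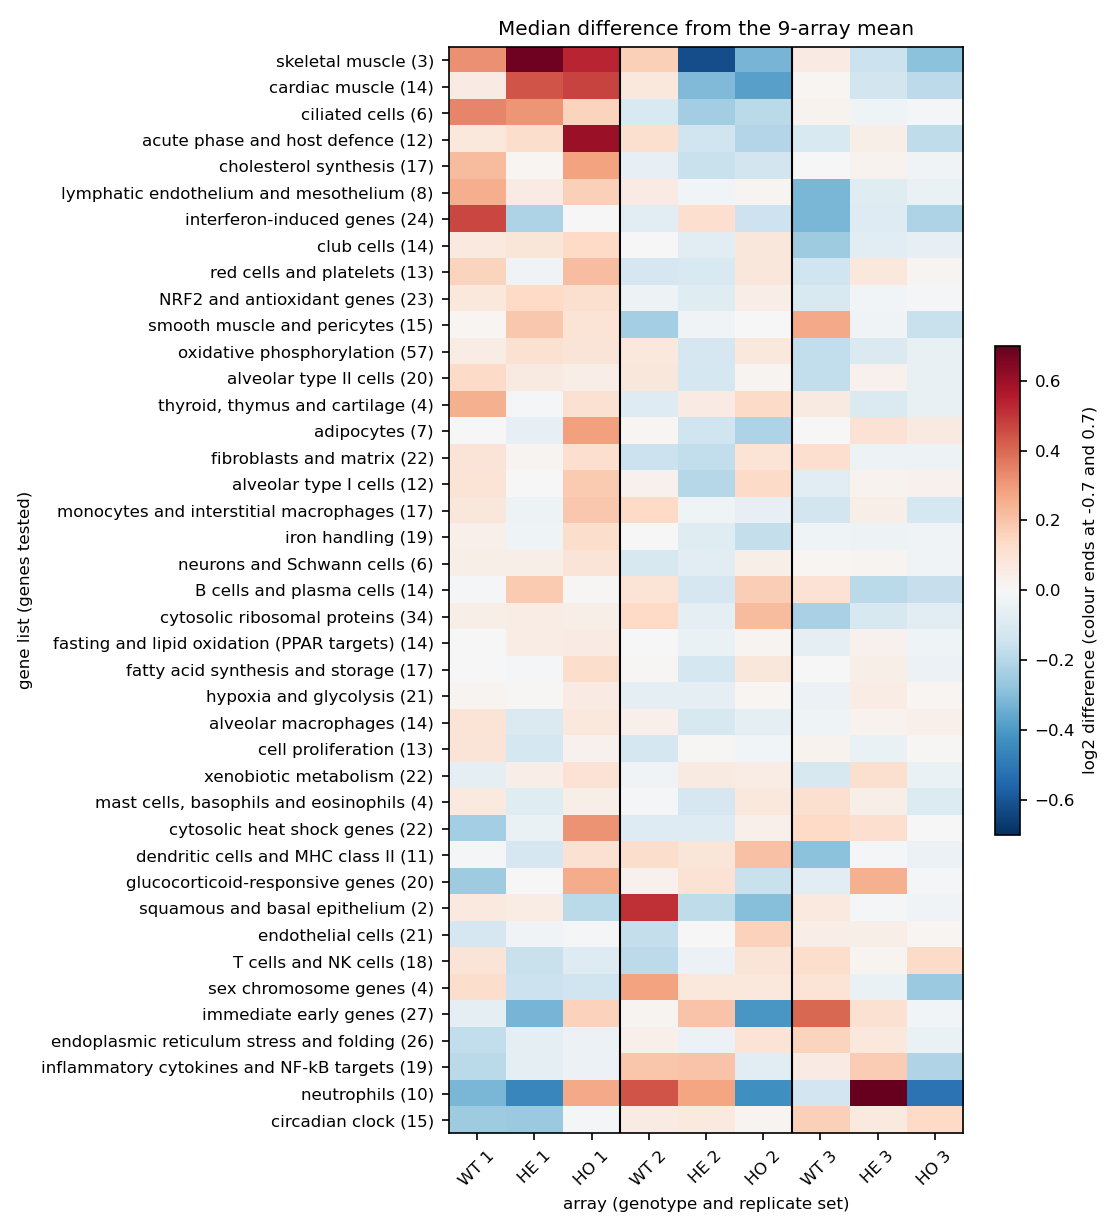
Median log2 difference from the 9-array mean for the 41 gene lists (rows, with the number of genes tested, ordered by set 1 minus the other sets) on the 9 arrays (columns, grouped by set); red is above and blue below the mean. Cardiac muscle is high in the HE and HO arrays of set 1, ciliated cell genes in all 3 arrays of set 1, and the clock list is low in set 1.

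Of 4 sex chromosome genes tested, 1 had an unadjusted p under 0.05 over the sets, where 9.95% of all genes did. It was the Y-linked Eif2s3y, at -0.40 ± 0.13 for set 3 minus set 2 without overlap of arrays. Among all genes, 7.05% were lower without overlap in that comparison. All 4 were above 0 in set 2 minus set 1, with a median of 0.18, and by array the list median ran from -0.26 to 0.28. Eif2s3y was at 9.25 to 9.92, Kdm5d at 8.93 to 9.59 at its tested probe set and Uty at 9.54 to 10.07 at the brighter of its pair. Xist was at 9.76 to 10.34 at 1 probe set and between 4.67 and 7.39 at its 2 others. Ddx3y was not analysed here.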

How the data were processed

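The deposited table holds 1 intensity per probe set and array. The deposited values have a mean of 1500 on each array once 2% is trimmed from either end, so the authors had scaled them; the summarising software is not stated in the labels or headers. Intensities were raised to the 5th percentile of all values (25.5), converted to log2, and kept at the deposited scaling. Of 22690 probe sets, 64 controls were dropped, then those whose mean log2 signal fell below the 40th percentile (8.90), leaving 13576. Sets and genotypes were fitted as factors to all 9 arrays with limma 3.58.1 (lmFit, eBayes; R 4.3.3; 4 residual degrees of freedom, 4.94 from moderation), with an F test over sets, 3 contrasts between sets and Benjamini-Hochberg adjustment over all probe sets at 0.05. Figures were drawn with matplotlib 3.10.9. The model was tested on simulated data.

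Symbols are those of the platform annotation, with a single one for 20380 probe sets, more for 691 and no symbol for 1555; only the first kind is named. Of these, 20351 matched RefSeq genes of GRCm38.p6. The members and the 41 lists, with 927 genes of which 623 were tested, were chosen with earlier results of these data known. Genes were named by this rule: per contrast, the 10 higher and 10 lower of largest difference among those that passed without overlap of arrays, filled by lowest p; the 10 of lowest p over the sets; at most 4 per described list, by lowest p over the sets; and Xist, Ddx3y, Eif2s3y and Kdm5d. Others named in the text were chosen after their values were seen. The set number served as the block for genotype. Deviations from the genotype means correlated at 0.0277 to 0.301 between arrays of 1 set, not all above the 0.1 used as the criterion for pairing, so the numbers were not taken to pair animals. Alternatives were other scalings, filters, floors, array weights, probe set choices, a relabelled HO array and each array left out.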

Additional observations from a re-analysis of the deposited data

How the results depend on the processing

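The counts of called probe sets depended on most choices. Over the 3 sets, 2 probe sets passed; the count was 1 with quantile normalization, median centring, a filter at the 60th percentile, 1 probe set per gene or no genotype covariate, 5 with a trended and robust eBayes, and 0 with no filter (22626 tested) or with HO replicate 2 counted as HE. Leaving out each array in turn gave 0 to 1. For set 2 minus set 1, 4 became 9 with the trended and robust eBayes, 19 with no genotype covariate, 2 with 1 probe set per gene and 0 with no filter or with HO replicate 2 counted as HE, and 0 to 6 with an array left out. For set 3 minus set 1, 0 became 3 with the trended and robust eBayes and 0 to 1 with an array left out, and set 3 minus set 2 stayed at 0 throughout. Genotype stayed at 0 in every setting but the fits without WT replicate 1 or HE replicate 2, which gave 1; with no replicate block it was 0, and 420 unadjusted. The block is the set itself, so it was left out only for the genotype test. Unadjusted counts over the sets were 885 with 1 probe set per gene, and 1164 to 1765 with an array left out; for genotype they were 1115 with no filter, 387 with the filter at the 60th percentile, 380 with 1 probe set per gene, and 430 to 840 with an array left out. The cause of these shifts was not tested. Of 1146 gene values under alternatives, 34 lost and 19 gained the threshold and 0 changed direction. These genes had been chosen for a low p or a large difference in the same data, so their direction could hardly change. Of 2577 list medians, 140 moved by more than the spread between arrays of a set, and 148 changed sign. Arrays give no count depth; 3 arrays per set limit the precision.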

Other observations

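Genes of the endoplasmic reticulum stress and folding list were mostly above 0 in sets 2 and 3 against set 1. Of 26 tested, 20 were above 0 in each, with medians of 0.11 and 0.18, and 6 were higher and 0 lower in set 3 at an unadjusted p under 0.05, where 3.86% of all genes were higher. The median in set 3 was 0.06 without the WT array of set 1, and that in set 2 was 0.04 without the HO array of set 2. Canx, the lectin chaperone calnexin, read 11.04, 11.11 and 11.16 in set 1, 11.65, 11.43 and 11.23 in set 2, and 11.83, 11.81 and 11.72 in set 3, in the order WT, HE, HO. The sets did not overlap, and set 3 minus set 1 was 0.69 ± 0.13 (limma, adjusted p = 0.197), but the other tested Canx probe sets gave 0.01 ± 0.12 and -0.01 ± 0.16. Xbp1, a transcription factor of the folding response, was 0.61 ± 0.13 higher in set 2 and 0.48 ± 0.13 in set 3 at 1 probe set, but 0.09 ± 0.16 and 0.40 ± 0.16 at its brightest.

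Single probe sets that disagreed with others of their gene were common among the leading genes. Itgb1, an integrin chain, had -1.68 ± 0.22 for set 3 minus set 1 at 1 probe set, with signals of 8.62 to 11.55, while its 2 brightest probe sets gave 0.10 ± 0.15 and 0.02 ± 0.12. Hif1a, the hypoxia-inducible factor, gave 1.03 ± 0.14 at its leading probe set and -0.21 ± 0.15 and 0.29 ± 0.16 at 2 brighter ones. The beta globin Hbb-b2 gave -0.80 ± 0.13 at 1 and 0.15 ± 0.27 at the other, and may share signal with the other beta globin genes.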
